A study of Rattus norvegicus with 13 samples.

Results

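The genes examined are ligands, receptors and feedback inhibitors of growth factor signalling through receptor tyrosine kinases, namely the FGF, PDGF, VEGF, angiopoietin, HGF, KIT and CSF1 families with the heparin-binding factors pleiotrophin, midkine and HDGF. They were taken by symbol alone, and 39 of the 14790 genes in the table matched. The RNA came from mammary epithelial cells of 13 female Wistar-Furth rats, a strain susceptible to mammary cancer, with 1 library per rat. The window of susceptibility (WOS) is the age at which exposure most readily leads to mammary cancer: 6 rats were inside it, aged 6 weeks, and 7 were past it, aged 10 weeks. The labels name no treatment for any rat. Minced glands were digested with collagenase and passed over a nylon filter meant to hold back ductal fragments and let stromal cells through, and such preparations still hold stromal fibroblasts and immune cells. Epithelial markers were found at both ages, at widely differing levels. Epcam had a mean normalized count of 10767 ± 1347 (SD, n = 6) at 6 weeks and 14155 ± 2051 (SD, n = 7) at 10 weeks. Over all rats the means were 67.6 for Foxa1 and 36.7 for Oxtr. The fibroblast marker Col3a1 had a higher mean than Epcam at both ages, 107790 at 6 weeks and 24785 at 10 weeks. Of 11 luminal markers, all 11 were measured and Cdh1 had the highest count, which is not scaled by transcript length here or for the other lists. Of the 10 basal entries, 9 were measured and Myh11 had the highest count.

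FGF, PDGF, VEGF, HGF, KIT and CSF1 signalling starts when a secreted ligand brings receptor chains together at the cell surface, which switches on their kinase and the RAS-MAPK and PI3K relays. Sprouty and Spred proteins are feedback inhibitors that dampen the RAS-MAPK relay, and heparan sulfate chains hold many of the ligands near the cells that make them. In the mammary gland, stromal FGF and HGF act on epithelial receptors during ductal growth, PDGF acts mainly on stromal cells and VEGF on blood vessels.

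The measured values are RSEM counts that the authors scaled per library and rounded, called normalized counts here. Their total per rat lay between 13261906 and 15659533 at 6 weeks and between 13766735 and 15402814 at 10 weeks. Because of the scaling, these totals are not the sequencing depth. Some whole numbers from 1 to 30 never occurred in 7 rats, and the gaps were widest in rat 80 within WOS, where 15 were missing, and in rat 78 outside WOS, where 16 were missing. In these 2 libraries a read was worth about 2 normalized counts, so low values are less precise there. With the mean of each age removed, the first component of the remaining variation held 28.3% of it and set 5 rats (75 and 80 within WOS, 78, 81 and 83 outside WOS) apart from the other 8. No label names this split, and the log2 fold changes of the DE members in both sets are given below.

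The comparison of the ages used limma, fitted to log2(normalized count + 1) of all 14790 genes. A gene with a Benjamini-Hochberg adjusted p under 0.05 is called differentially expressed (DE). A log2 fold change above 0 means higher expression at 6 weeks than at 10 weeks. Met, Vegfa and Kit were lower within WOS, and Mdk, Pdgfd, Pdgfrb, Ptn, Spred2 and Spry1 were higher. These 9 DE genes are 23.1% of the 39 members, where 16.1% of all genes tested were DE. Expression was higher within WOS for 6 members, against a background of 8.71%, and higher outside WOS for 3, against 7.39%. Only Met and Vegfa showed no overlap between the ages, where 6.07% of all genes did so and 2.78% did so with the higher values outside WOS. By role, 4 of 23 ligands, 3 of 8 receptors and 2 of 6 inhibitors were DE, and neither Fgf11 nor Pdgfrl was. The median log2 fold change was 0.13 over the 39 members and 0.028 over all genes. The median of the members was 0.049 without rat 86 (0.038 over all genes) and 0.19 without rat 84 (0.017 over all genes). With sample quality weights it was 0.039, where all genes gave 0.035. With every rat and no weights, the fold change was above 0 for 25 members and below 0 for 14. Under another scaling of the libraries the sign turned for Fgfr1, Fgfr2, Spry2 and Spry4, whose values lie close to 0. The P-values set the difference between the ages against the spread between individual rats.

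The number of DE members changed with the rats included. It was 5 without rat 70, 74 or 87, and 3 of these were then higher within WOS, while 9.54%, 10.8% and 10.5% of all genes were DE in these fits. The number of DE genes over the whole table was 1411 without rat 70, 1488 without rat 84 and 1558 without rat 87, where 2381 were DE with every rat. Members without overlap numbered 5 without rat 84 (6.55% of all genes), 4 without rat 87 (6.32%) and 4 under library size scaling (5.84%). With sample quality weights 12 members were DE, where 38.2% of all genes were, with Pdgfrb lost and Fgf21, Hgf, Pdgfc and Pgf gained. In the set of 8 rats 5 members were DE (Met, Vegfa, Kit, Mdk and Fgf21) and 7 did not overlap, where 23.5% of all genes were DE and 27.1% did not overlap. In the set of 5 rats no gene was DE by limma, with 11 members and 1976 genes at an unadjusted p under 0.05. With rats 78 and 80 left out, also chosen after seeing the data like the set of 5 rats alone, Met and Vegfa were the 2 members still DE, where 12.5% of all genes were. The other 7 then had adjusted p-values from 0.053 to 0.086, and the 6 higher within WOS had log2 fold changes from 0.38 to 0.85. Ranges over the alternatives given below for members that were not DE cover the 25 other alternatives and not these 2.

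**Figure D1:**
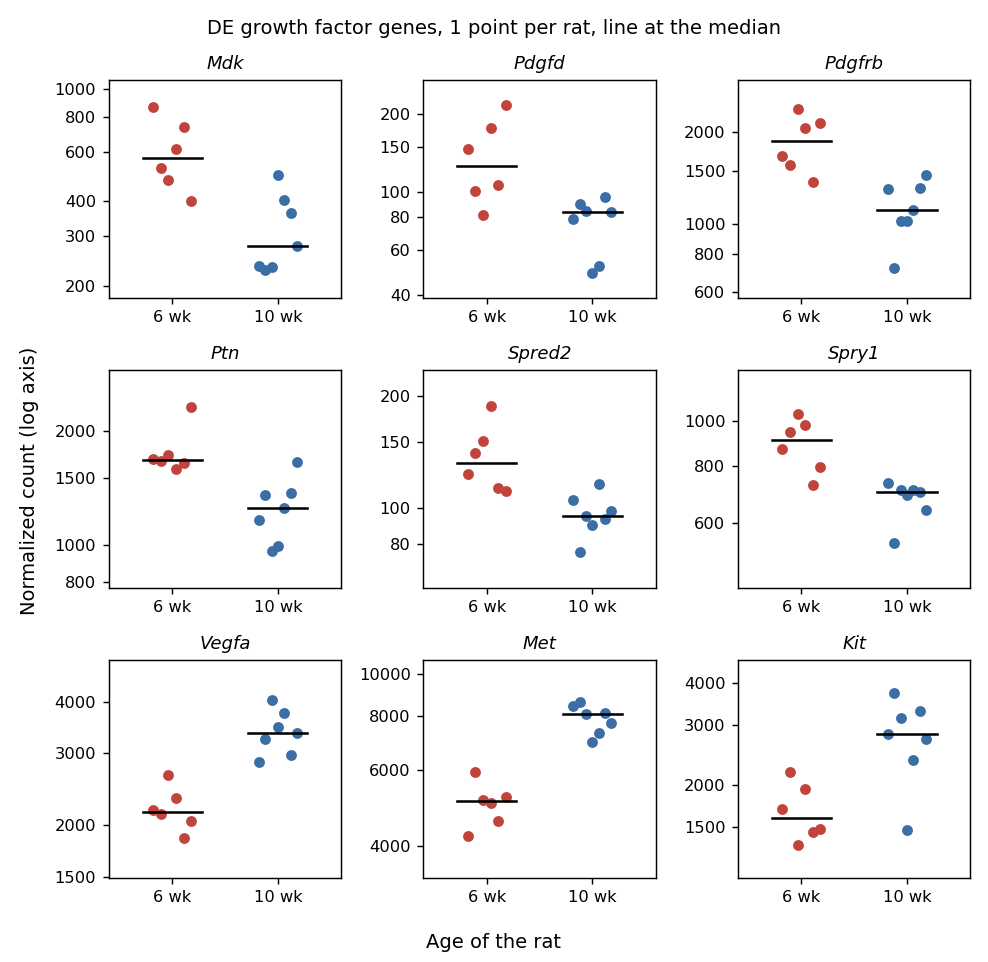
Normalized counts (log axis) of the 9 DE growth factor genes in 6 rats at 6 weeks (red) and 7 rats at 10 weeks (blue), with 1 point per rat and a black line at the median. Met and Vegfa show no overlap between the ages, while in the other 7 genes at least 1 rat lies within the range of the other age.

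Among the ligands, Vegfa had the most separated values. It encodes the main growth factor for blood vessel endothelium. Within WOS its normalized count was 1862 at the lowest, 2155.5 at the median and 2659 at the highest. Outside WOS these values were 2854, 3353 and 4046. Each of the 6 rats within WOS lay below each of the 7 rats outside WOS. The mean was 2202 ± 272 (SD, n = 6) against 3387 ± 421 (SD, n = 7), a log2 fold change of -0.62 (SE 0.11, adjusted p = 0.00358). Its value was -0.59 in the set of 8 rats and -0.59 in the set of 5. In these bulk samples, fewer cells of a type and less RNA per cell cannot be told apart, for this gene and those below.

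Mdk encodes midkine, a heparin-binding factor made in growing tissues. Its normalized count ran from 402 through a median of 571 to 866 within WOS, and from 227 through 277 to 497 outside WOS. All 6 rats within WOS were above the median outside WOS, and the ranges overlapped through 2 rats outside WOS and 2 within. The mean was 604 ± 172 (SD, n = 6) against 320 ± 105 (SD, n = 7), with a log2 fold change of 0.93 (SE 0.23, adjusted p = 0.0176). It was DE in each of the 13 fits that leave out a rat, and its log2 fold change was 1.16 in the set of 8 rats and 0.59 in the set of 5.

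Ptn encodes pleiotrophin, the closest relative of midkine. Within WOS the lowest, median and highest normalized counts were 1583, 1676 and 2311. Outside WOS they were 966, 1251 and 1655. A single rat outside WOS, 87, reached the values within WOS, and rat 86 stood above its group. The means were 1769 ± 270 (SD, n = 6) and 1252 ± 240 (SD, n = 7), and the log2 fold change was 0.51 (SE 0.14, adjusted p = 0.0299). Leaving out rat 70, 84, 86, 72 or 78 ended this call, with an adjusted p of 0.0581 at most, and the call was also lost in the set of 8 rats (log2 fold change 0.39, adjusted p = 0.104). The set of 5 had a value of 0.64. Hdgf, a further heparin-binding factor, which acts largely in the nucleus, had a log2 fold change of -0.16 (SE 0.15, adjusted p = 0.496), which ran from -0.26 to 0.017 over the alternatives. For Hdgf the set of 5 rats gave -0.49.

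Pdgfd, a ligand of the PDGF beta receptor, had normalized counts of 82 at the lowest, 127 at the median and 218 at the highest within WOS. The corresponding counts outside WOS were 49, 84 and 96. Only rat 75 within WOS fell inside the range outside WOS. The mean was 139 ± 52.0 (SD, n = 6) against 76.4 ± 18.5 (SD, n = 7), with a log2 fold change of 0.81 (SE 0.24, adjusted p = 0.0399). This adjusted p is the highest of the 9 calls, and the call was lost on leaving out any of 10 rats (70, 80, 84, 86, 72, 74, 78, 81, 83 and 87), with an adjusted p of up to 0.0847. It was also lost in the set of 8 rats (log2 fold change 0.64, adjusted p = 0.0808), and the log2 fold change in the set of 5 was 1.0.

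The log2 fold changes of the other PDGF ligands were 0.27 for Pdgfc, 0.23 for Pdgfa and -0.05 for Pdgfb, and none was DE. Pdgfc became DE with sample quality weights (adjusted p = 0.0304), and the value of Pdgfa was 0.15 without rat 75 or rat 80. PDGF-A and PDGF-C act mainly through the alpha receptor, while PDGF-B binds both receptors. Their mean normalized counts over all rats were 253 for Pdgfc, 266 for Pdgfa and 1777 for Pdgfb. These counts are not scaled by transcript length, so no order among the members is read from them.

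Hgf, the ligand of Met, is made by stromal cells. Its normalized count ran from 116 through a median of 123 to 230 within WOS and from 149 through 226 to 339 outside WOS. Rats 75 and 86, within WOS, lay inside the range outside WOS, and the other 4 lay below it. The log2 fold change was -0.63 (SE 0.23), and the adjusted p of 0.0789 did not pass the threshold. It did pass without rat 86, without rat 83 and with sample quality weights (log2 fold change -0.83, adjusted p = 0.00416).

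Members of the FGF ligand group showed no DE gene. Fgf1 (log2 fold change -0.34, adjusted p = 0.207) and Fgf2 (0.038, adjusted p = 0.897) are ligands without a classical secretion signal, and Fgf7 (0.25, adjusted p = 0.578) is a stromal ligand of the epithelial form of Fgfr2. Without rat 80 the value of Fgf1 was -0.18, and that of Fgf7 ran from -0.26 to 0.40 over the alternatives. Fgf10 and Fgf9, with mean normalized counts of 13.4 and 11.4, were too low for small changes to be detectable. Fgf10 had a log2 fold change of 0.45 with a 95% interval from -0.42 to 1.33, and Fgf9 one of -0.31 with an interval from -1.56 to 0.95. Rat 80 had the highest Fgf10 count, 46, and the lowest Fgf9 count, 0, and without it the values were 0.11 for Fgf10 and 0.34 for Fgf9. Over the alternatives Fgf9 ran from -0.82 to 0.38.

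Fgf21 and Fgf23 belong to the endocrine FGFs, which act at a distance. The normalized count of Fgf21 ran from 7 to 31 at 6 weeks (median 14) and from 1 to 19 at 10 weeks (median 5). The ages overlapped between 7 and 19. Its log2 fold change of 1.34 (SE 0.53) was the largest of all 39 members but did not pass the threshold (adjusted p = 0.105). It became DE with the set of rats as a term, with sample quality weights, in the set of 8 rats and without rat 81, and its value was 0.89 with a pseudocount of 5. Fgf23 had a mean normalized count of 9.85 and a log2 fold change of 0.44 (adjusted p = 0.519), which was 0.10 without rat 74. Fgf11, an FGF that stays inside the cell and binds ion channels, had counts from 28 to 55 at 6 weeks (median 43.5) and from 45 to 95 at 10 weeks (median 60). Its log2 fold change was -0.54 (SE 0.20, adjusted p = 0.0912).

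Of the 6 VEGF and angiopoietin members, Vegfa was the only DE gene. The symbols chosen for the members left out the VEGF ligand Vegfd, which was DE and higher within WOS and is given below with the partner genes. Vegfc, which drives the growth of lymphatic vessels, had counts from 75 to 195 at 6 weeks (median 108) and from 51 to 105 at 10 weeks (median 91), with a log2 fold change of 0.60 (SE 0.25, adjusted p = 0.114) that was 0.31 with sample quality weights. Only rat 84 within WOS lay inside the range outside WOS. Vegfb had a mean normalized count of 32.1 and a log2 fold change of -0.30, and the value was -0.17 without rat 81 and -0.46 with sample quality weights. Pgf, a ligand of Flt1, had one of 0.26 and became DE with sample quality weights (0.39, adjusted p = 0.0402). Angpt2, which opposes Angpt1 at the Tek receptor in many settings, had 0.27, and Angpt1 had -0.061, with ranges over the alternatives of -0.04 to 0.35 and -0.16 to 0.18. Kitlg, the ligand of Kit, had a mean count of 6455 ± 1185 (SD, n = 6) at 6 weeks and 7337 ± 1024 (SD, n = 7) at 10 weeks, with a log2 fold change of -0.19 (adjusted p = 0.354) and a range of -0.31 to -0.12. Csf1, the growth factor of macrophages, had a log2 fold change of 0.20 (adjusted p = 0.427) and a range of -0.044 to 0.29.

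**Figure D2:**
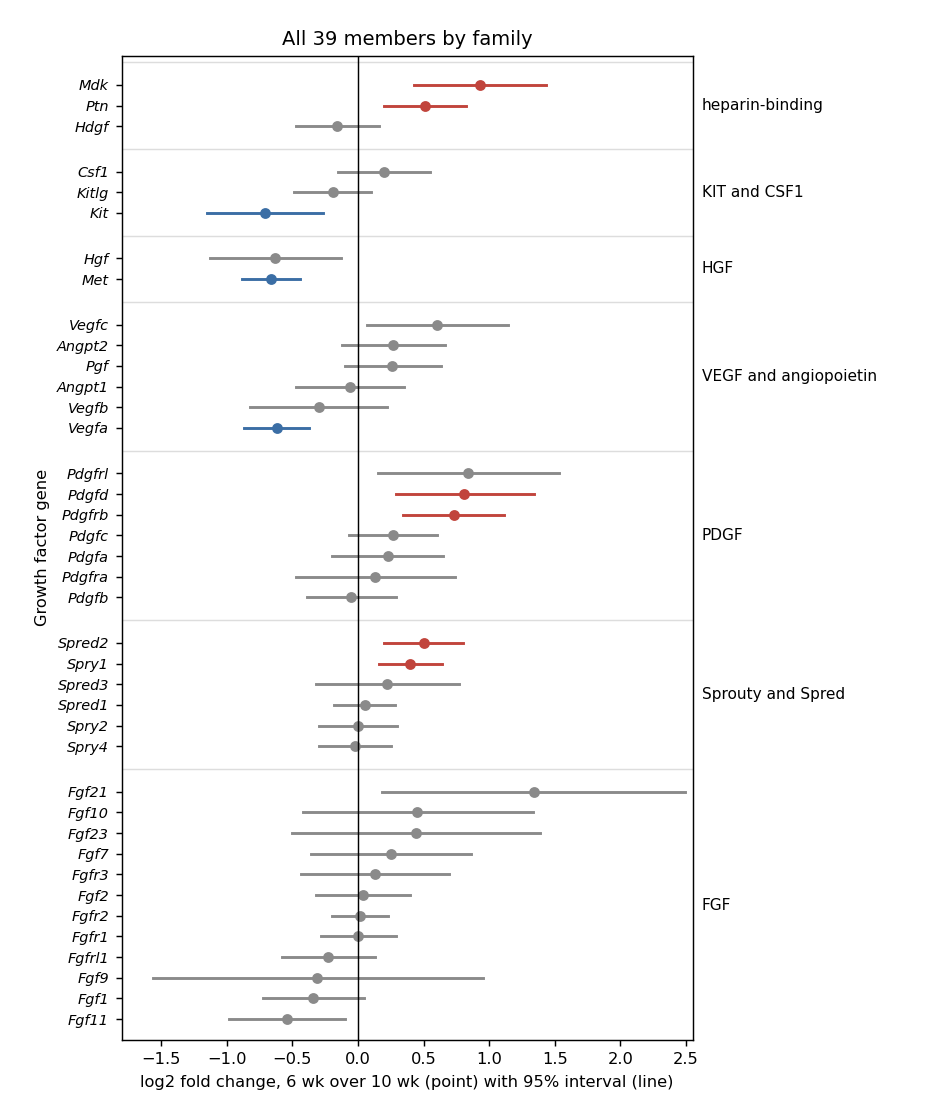
Log2 fold change (6 weeks over 10 weeks) of all 39 growth factor genes by family, with the 95% confidence interval from limma as a line. Genes higher within WOS at an adjusted p under 0.05 are red (6 genes), those lower are blue (3 genes) and the 30 others are grey, with the widest intervals for the low-count ligands such as Fgf9 and Fgf21.

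Among the receptors, Met was the most clearly separated. It encodes the HGF receptor of epithelial cells. Within WOS the lowest, median and highest normalized counts were 4206, 5071.5 and 5921. Outside WOS they were 6946, 8083 and 8631. The highest rat within WOS lay below the lowest rat outside WOS. Its mean of 5004 ± 585 (SD, n = 6) against 7888 ± 603 (SD, n = 7) gave a log2 fold change of -0.66 (SE 0.10, adjusted p = 0.00111). Met was DE under every alternative with the exception of the set of 5 rats alone, in which no gene was DE, and its log2 fold change was -0.55 there and -0.74 in the set of 8 rats.

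Kit encodes the receptor of stem cell factor, found on luminal progenitor cells and on mast cells. Counts ran from 1324 through a median of 1591 to 2190 within WOS, and from 1467 through 2822 to 3755 outside WOS. The overlap came from rat 81 outside WOS, which lay among the rats within WOS, while the other 6 outside WOS lay above all rats within WOS. The means were 1682 ± 330 (SD, n = 6) and 2802 ± 737 (SD, n = 7), and the log2 fold change was -0.71 (SE 0.20, adjusted p = 0.0343). The call was lost under library size scaling (adjusted p = 0.062) and on leaving out rat 70, 75, 84, 86, 72, 74, 78, 85 or 87, with an adjusted p of up to 0.0749. Its log2 fold change was -0.89 in the set of 8 rats and -0.47 in the set of 5. Markers of mast cells moved the other way. Of 10 entries in the mast cell list, 7 were in the table and all 7 were DE and higher within WOS. Their summed normalized count ran from 795 to 2068 at 6 weeks (median 1593) and from 48 to 479 at 10 weeks (median 110). Mcpt1l1 had the highest count in that list, and Tpsab1, Tpsb2, Ms4a2 and Hdc reached 0 in at least 1 rat. The part of mast cells in the result for Kit was not tested.

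Pdgfrb, the PDGF beta receptor of pericytes and fibroblasts, had counts of 1380, 1869.5 and 2383 within WOS as lowest, median and highest. Outside WOS the same values were 718, 1110 and 1445. The ranges met in 1 rat of each age, with rat 87 outside WOS above rat 84 within WOS. The means were 1869 ± 388 (SD, n = 6) and 1134 ± 244 (SD, n = 7), with a log2 fold change of 0.73 (SE 0.18, adjusted p = 0.0170). It kept its call in each of the 13 fits that leave out a rat, with an adjusted p of at most 0.033. It lost it in the set of 8 rats (log2 fold change 0.53, adjusted p = 0.138) and with sample quality weights (0.44, adjusted p = 0.0507), and the log2 fold change in the set of 5 rats was 1.08. Pdgfra, the alpha receptor, which is common on fibroblasts, had mean counts of 1304 ± 414 (SD, n = 6) and 1214 ± 417 (SD, n = 7) and a log2 fold change of 0.13 with a 95% interval from -0.47 to 0.74, and it ran from -0.26 to 0.25 over the alternatives. For Pdgfra the set of 5 rats gave 0.37. Pdgfrl, a receptor-like protein without a kinase, had a log2 fold change of 0.84 (SE 0.32, adjusted p = 0.0914), with counts of 107 to 188 at 6 weeks and 35 to 160 at 10 weeks. It was 0.36 with sample quality weights and 0.51 in the set of 8 rats (adjusted p = 0.41), and it passed the threshold without rat 72 (1.01, adjusted p = 0.0499).

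No FGF receptor was DE, and Fgfr1 and Fgfr2 differed little between the ages. Fgfr1, found on stromal and basal cells, had mean counts of 3654 ± 597 (SD, n = 6) and 3643 ± 551 (SD, n = 7), and Fgfr2, the epithelial receptor of Fgf7 and Fgf10, had 1748 ± 179 (SD, n = 6) and 1728 ± 160 (SD, n = 7). Their log2 fold changes were 0.0026 and 0.016, with 95% intervals from -0.28 to 0.29 and from -0.20 to 0.23, and both turned below 0 under median-ratio scaling. Fgfr3 had a log2 fold change of 0.13 (adjusted p = 0.770) with a wider 95% interval, from -0.43 to 0.69. Its value ran from -0.065 to 0.34 over the alternatives and was 0.57 in the set of 5 rats. Fgfrl1, which binds FGF but lacks a kinase domain, had a log2 fold change of -0.23 (adjusted p = 0.364) with a 95% interval from -0.58 to 0.13. Its range over the alternatives was -0.30 to 0.0041, and the set of 5 rats gave -0.55.

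Of the 6 inhibitors, Spry1 and Spred2 were higher within WOS. Spry1 is a Sprouty protein, with counts of 725, 908 and 1034 within WOS as lowest, median and highest, and of 542, 700 and 733 outside WOS. Rat 84 within WOS was below rat 72 outside WOS, and no other rats crossed. The means were 892 ± 118 (SD, n = 6) and 674 ± 64.8 (SD, n = 7), with a log2 fold change of 0.40 (SE 0.11, adjusted p = 0.0308). Leaving out rat 70, 71, 75, 80, 74 or 87 ended the call, with an adjusted p of up to 0.0638, as did the set of 8 rats alone (log2 fold change 0.35, adjusted p = 0.0962). It was 0.52 in the set of 5.

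Spred2, which blocks activation of RAF by RAS, had counts from 111 through 131.5 to 188 within WOS and from 76 through 95 to 116 outside WOS. Rat 83 outside WOS lay above 2 rats within WOS, and the others were separated. The means were 138 ± 29.2 (SD, n = 6) and 96.1 ± 12.5 (SD, n = 7), and the log2 fold change was 0.50 (SE 0.14, adjusted p = 0.0307). The call was lost without rat 71, 75, 74 or 87, with an adjusted p of 0.0605 at most, and in the set of 8 rats (log2 fold change 0.39, adjusted p = 0.072). It was 0.75 in the set of 5. The other inhibitors had log2 fold changes of 0.22 for Spred3, 0.051 for Spred1, 0.0038 for Spry2 and -0.024 for Spry4, and the last turned above 0 under library size scaling and Spry2 below 0 under median-ratio scaling. Without rat 80 the value of Spred3 was 0.072, and that of Spred1 ran from 0.00078 to 0.098 over the alternatives.

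The members also differed in how much they varied among rats of the same age. The SD of log2(normalized count + 1) within an age had a median of 0.32 over the members and of 0.37 over all genes. Met and Fgfr2 varied least, at 0.14 each, followed by Spred1 at 0.15 and Spry1 at 0.17. Fgf9 varied most, at 1.13, then Fgf21 at 1.04. All 4 members with a mean normalized count under 20, Fgf9, Fgf10, Fgf21 and Fgf23, had an SD of at least 0.78. Among the others Pdgfrl was the most variable, at 0.61.

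The fibroblast and pericyte markers that were DE were higher within WOS, as were Pdgfrb and Pdgfd. The members Pdgfra, Hgf and Fgf7 were not DE. Of 10 fibroblast markers, 9 were in the table and 6 were DE, all higher within WOS, while Dcn (log2 fold change 0.57, adjusted p = 0.197), Dpt (0.52, adjusted p = 0.124) and Fbln1 (-0.24, adjusted p = 0.518) were not DE. Their summed normalized count ran from 134024 to 266139 at 6 weeks (median 250530.5) and from 24091 to 69480 at 10 weeks (median 59769), and Col3a1 had the highest count. Of 6 pericyte markers, 3 were DE and higher within WOS, and their sum ran from 4571 to 6743 at 6 weeks (median 5006) and from 2749 to 4151 at 10 weeks (median 3700), with Notch3 highest. No fibroblast or pericyte marker in the table was at 0 in any rat. The part of these cells in the results for Pdgfrb, Pdgfd, Ptn and Mdk was not tested.

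Around Vegfa and Kit, the values of vessel and epithelial markers were as follows. Of 9 endothelial markers, 7 were in the table and 1, Cldn5, was DE and higher within WOS, with sums from 4929 to 9585 at 6 weeks and from 4200 to 7214 at 10 weeks and Cdh5 highest. Of the 11 luminal markers 2, Epcam and Cdh1, were DE and lower within WOS, with log2 fold changes of -0.39 (adjusted p = 0.0454) and -0.47 (adjusted p = 0.0165). The others were not DE, and the median of all 11 was -0.13, with 1 value above 0. The luminal sum ran from 37910 to 55051 at 6 weeks and from 51658 to 66370 at 10 weeks. Of the 9 basal markers Cnn1 was DE and lower within WOS, while 5 had a log2 fold change above 0 and the median of all 9 was 0.15. The basal sum, to which Myh11 and Acta2 gave the most, ran from 23693 to 35955 at 6 weeks and from 32174 to 42435 at 10 weeks. Of 8 proliferation markers, 7 were DE and higher within WOS, with sums from 3851 to 7209 at 6 weeks and from 2261 to 3123 at 10 weeks and Pcna highest. The part of the epithelial share or of proliferation in the results for Met, Vegfa and Kit was not tested.

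**Figure D3:**
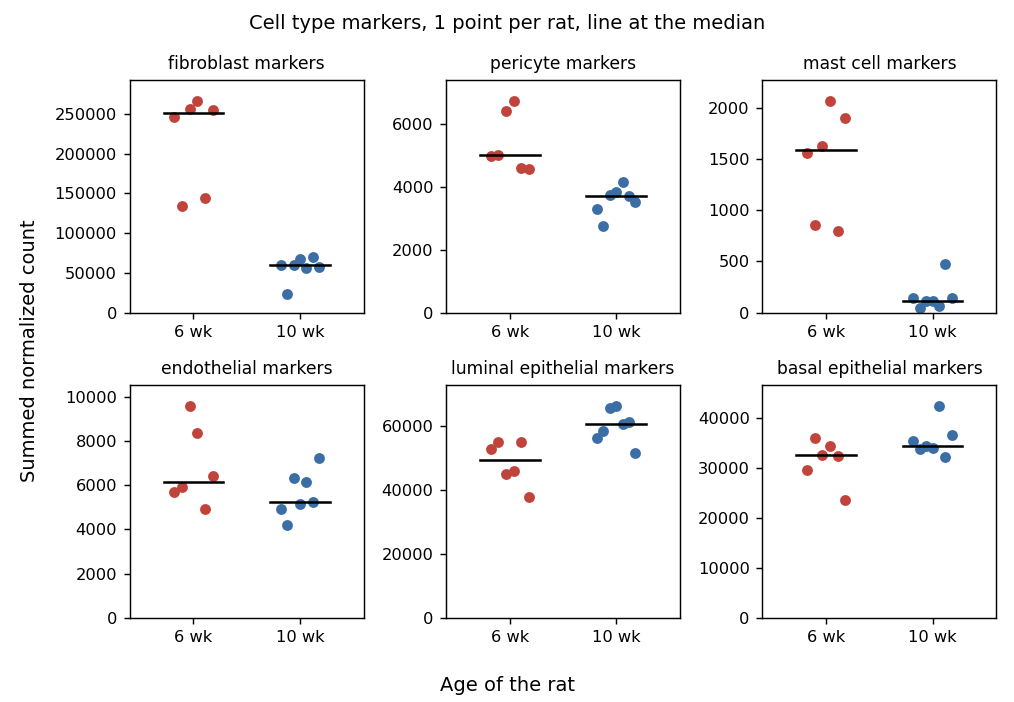
Summed normalized count of 6 cell type marker lists in each rat, with 1 point per rat and a black line at the median, for 6 weeks (red) and 10 weeks (blue). The fibroblast, pericyte and mast cell sums show no overlap between the ages and are higher at 6 weeks, while the endothelial, luminal and basal sums overlap.

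The remaining lists were 8 of 9 macrophage entries in the table with none DE (sums from 504 to 1206 at 6 weeks and from 491 to 1176 at 10 weeks, Mrc1 highest), and 5 of 5 Schwann cell markers with none DE. For adipocytes, 7 of 9 were in the table and 2, Adipoq and Plin1, were DE and higher within WOS, at mean counts of 19.3 and 5.92 (sums 4824 to 7549 and 3076 to 6229, Lpl highest). Of 9 lymphocyte markers 4 were in the table and 1, Cd79b, with a mean count of 3.92, was DE and higher within WOS (sums 96 to 319 and 137 to 493, Ptprc highest). Skeletal muscle had 2 of 7, none DE (16 to 54 and 14 to 56, Acta1 highest).

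Genes downstream of the receptors and their partners are given beside the 16.1% of all genes that were DE. In the RAS-MAPK and PI3K relay, 4 of 29 genes were DE, all lower within WOS, and the median log2 fold change was -0.13. Among them were Braf, a RAF kinase (-0.64, SE 0.16, adjusted p = 0.0164), Sos1, which loads RAS, and Rasa1, which turns it off (both -0.43). Of 22 ERK-responsive genes 6 were DE, all lower within WOS, with a median of -0.086. Among these 6 the largest differences were in Errfi1, a feedback inhibitor of the EGF receptor (-0.90, SE 0.097, adjusted p = 0.000170), Myc (-0.73), Egr3 (-0.68), Dusp6, a phosphatase of ERK (-0.59), and Fosl1 (-0.57). Spry1 and Spred2 were higher within WOS, whereas Dusp6 and Errfi1, which are feedback inhibitors as well, were lower.

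Genes that present or receive the ligands were DE in both directions. Of 25 heparan sulfate genes measured 6 were DE and higher within WOS and 1 was lower, with a median of 0.17. The higher ones included the core proteins Gpc3 (1.58, SE 0.21, adjusted p = 0.000468), Gpc1 (1.12) and Gpc6 (0.67), and the chain enzymes Ext2 (0.78) and Extl3 (0.51), whereas the epithelial core protein Sdc1 was lower (-0.41). Of 24 partner receptors and activators 5 were higher and 2 lower, with a median of 0.25. The lymphatic ligand Vegfd (1.92, SE 0.31, adjusted p = 0.00144), the protease Plau (0.97), which can activate HGF, Flrt2 (0.89), the VEGF co-receptor Nrp1 (0.60) and Plat (0.48) were higher. Alk, a reported receptor of midkine and pleiotrophin, was lower (-1.28, SE 0.20, adjusted p = 0.00118), as was the midkine-binding protein Ncl (-0.53). The receptors of Vegfa, Kdr (0.24, adjusted p = 0.345) and Flt1 (-0.12, adjusted p = 0.617), were not DE.

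The members' places in the genome were looked up by name. All 39 were found by symbol in the RefSeq annotation of GRCr8, on 14 chromosomes. Kit lies between Kdr and Pdgfra there with no other protein-coding gene in the way, and of the 3 genes only Kit was DE. Pdgfrb lies next to Csf1r, the receptor of Csf1, whose log2 fold change was 0.30 (adjusted p = 0.403). Spry1 and Fgf2 have 2 protein-coding genes between them, and Spry4 and Fgf1 have 1.

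Promoters from RefSeq (GRCr8) were matched by symbol for 31 of the 39 members, with 33 start sites. The 250 bases before each start were searched on both strands. The GC box GGGCGG, a motif of Sp factors, was found in 22 of the 33 (66.7%) and in 30.5% of all 33469 promoters of this length. The member promoters also had a higher median GC content, 60.8% against 51.2%. The TATA box TATAAA was in 3 of 33 (12.9% of all promoters) and the AP-1 motif TGANTCA in 2 of 33 (6.34% of all). A match is a run of letters and not a shown binding site. Of the 6 members higher within WOS, Spry1, Spred2, Ptn and Pdgfd had a promoter in the table, and all 4 held a GC box. The 150 bases before their starts are given because these 4 genes were all higher within WOS, 5′ to 3′ on the strand of the gene, with the GC box or its complement CCGCCC in capitals. Spry1 is at chr2:122485197-122485346 (plus strand), Spred2 at chr14:98350427-98350576 (plus strand), Ptn at chr4:66342333-66342482 (minus strand) and Pdgfd at chr8:11773358-11773507 (plus strand).
Spry1: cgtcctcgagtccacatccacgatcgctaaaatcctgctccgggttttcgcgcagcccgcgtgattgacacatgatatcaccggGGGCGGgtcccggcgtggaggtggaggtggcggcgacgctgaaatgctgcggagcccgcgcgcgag
Spred2: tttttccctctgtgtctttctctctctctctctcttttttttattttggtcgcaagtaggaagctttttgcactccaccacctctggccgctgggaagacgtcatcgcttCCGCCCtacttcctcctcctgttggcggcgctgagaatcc
Ptn: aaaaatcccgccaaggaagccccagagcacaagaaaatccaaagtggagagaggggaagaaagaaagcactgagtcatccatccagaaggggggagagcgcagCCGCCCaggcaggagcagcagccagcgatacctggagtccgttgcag
Pdgfd: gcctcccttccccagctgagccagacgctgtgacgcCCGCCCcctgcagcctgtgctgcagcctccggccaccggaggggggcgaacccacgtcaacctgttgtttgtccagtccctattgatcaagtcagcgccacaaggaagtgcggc
For the members lower within WOS, the GC box was in the promoter of Kit and at 1 of the 2 starts of Vegfa, and it was not in the 250 bases before the start of Met.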

How the data were processed

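Libraries of 13 rats were analysed, 6 within WOS and 7 outside WOS. Per the submitters' processing notes, which name rn5, the authors estimated counts with RSEM 1.2.22. The deposited per-rat values are a score, namely these counts multiplied by a factor for each library and rounded, as gaps among the low whole numbers show. All 13 per-rat columns were used. The table's other columns hold the authors' comparison of the ages (log2 fold change, mean abundance, a likelihood ratio, a p-value, a false discovery rate and a status), transforms of it and gene annotation, and were not used here.

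Genes with a mean of at least 1 (all 14790) were taken to log2(normalized count + 1) and tested with limma 3.58.1 (R 4.3.3). No count model was used, because the values are scaled and no longer counts of reads. The log2 scale understates the change of low genes. Tests were two-sided, with no covariate, and adjusted over all genes. The step was tested on simulated data. Other steps used Python 3.11.15.

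The members and lists were chosen with earlier results of these data known. Every member is accounted for. Those DE or without overlap between the ages were given in full, those with an absolute log2 fold change of at least 0.5 or an unadjusted p under 0.05 with their values, and the others by family. In each of 4 pathway lists, at most 5 DE genes a direction with a mean of at least 20 were named by size of fold change. In 12 marker lists the gene with the highest count was named. The values of 2 list genes that these rules name are not reported here. Promoters were from RefSeq GRCr8.

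Each choice was varied in turn, with scaling by upper quartile, by library size or by median ratio, pseudocounts of 0.1 and 5, a minimum mean of 10 or none, limma-trend, sample quality weights, the residual component or the set of rats as a term, the set of 8 rats alone and each rat left out. The set of 5 rats alone, and all rats but 78 and 80, were chosen after seeing the data.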

Additional observations from a re-analysis of the deposited data

Results flagged for a closer look

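In 4 of the 78 groups of values tested (39 members at 2 ages), a rat lay far from the others of its age on the log2 scale, where chance alone gives about 1 in 20 groups. Ptn had a normalized count of 2311 in rat 86 at 6 weeks, with the other rats of that age between 1583 and 1725. Pdgfb had 1218 in the same rat, below the other values of 1714 to 1918. Rat 80 had the lowest Fgf1 count at 6 weeks, 190, where the others ran from 309 to 404. Its Fgf9 count was 0, where the others ran from 10 to 18, and rat 80 is a library in which a read was worth about 2 normalized counts.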

How the results depend on the processing

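No DE member changed sign under any of the 25 alternatives or the 2 chosen after seeing the data. Over the 12 that do not leave out a single rat, 101 of 108 values for the 9 DE members stayed under the threshold, and over the 13 that do 83 of 117 did. All genes tested gave 5647 DE genes with sample quality weights and 1411 to 2680 with a rat left out. With a rat left out, DE members numbered 5 to 9 (3 to 6 higher within WOS), and 9.54% to 18.1% of all genes were DE. The number of DE members was lowest without rat 70, 74 or 87. Members without overlap numbered 2 to 5 in these fits, where 6.28% to 9.24% of all genes did not overlap. Library size scaling gave 4 members without overlap (5.84% of all genes). The set of 8 rats gave 5 DE members, 2 of them higher within WOS, and 7 without overlap, where 23.5% of all genes were DE and 27.1% did not overlap. In the set of 5 rats, 0 genes and 0 members were DE by limma (0 in either direction), with 1976 genes and 11 members at an unadjusted p under 0.05, and 18 members did not overlap, as did 34.4% of all genes. Without rats 78 and 80, limma gave 2 DE members, with 0 higher within WOS, where 12.5% of all genes were DE. In that fit 11 members had an unadjusted p under 0.05, as did 4549 of the 14787 genes tested. In these 3 settings fewer rats are tested, and the cause of the other changes was not tested.

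Reversals were confined to members that were not DE. In the set of 8 rats the log2 fold change became 0.18 for Angpt1, -0.04 for Angpt2, -0.027 for Csf1, -0.26 for Fgf7, 0.38 for Fgf9, -0.012 for Fgfr1, -0.044 for Fgfr2, -0.065 for Fgfr3, 0.0041 for Fgfrl1, 0.017 for Hdgf and 0.079 for Pdgfb. Sample quality weights gave 0.16 for Angpt1, -0.044 for Csf1, -0.21 for Fgf7, 0.35 for Fgf9, -0.037 for Fgfr1, 0.036 for Pdgfb, -0.26 for Pdgfra and -0.037 for Spry2. Median-ratio scaling gave -0.018 for Fgfr1, -0.0052 for Fgfr2 and -0.017 for Spry2, and library size scaling 0.024 for Spry4. In the set of 5 rats the values were -0.084 for Fgf2, -0.071 for Spry2, 0.17 for Spry4 and 0.061 for Vegfb. Without rats 78 and 80 they were 0.0097 for Angpt1, 0.33 for Fgf9, -0.017 for Fgfr1 and -0.019 for Fgfr2. With a rat left out, ranges that crossed 0 were -0.025 to 0.10 for Fgf2, -0.51 to 0.34 for Fgf9, -0.061 to 0.062 for Fgfr1, -0.025 to 0.049 for Fgfr2, -0.019 to 0.34 for Fgfr3, -0.055 to 0.056 for Spry2, -0.077 to 0.027 for Spry4, -0.13 to 0.049 for Pdgfb, -0.034 to 0.25 for Pdgfra and -0.16 to 0.05 for Angpt1. The cause was not tested. The sequencing depth of the libraries is not known from scaled values, and the 4 members with means under 20 had SDs within an age of at least 0.78 on the log2 scale. No paired analysis was possible because rat numbers are not shared between the ages.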
